A study of Mus musculus with 6 samples.

Results

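Goblet cell secretory products were followed through 10 genes: the mucus and granule proteins Muc2, Fcgbp, Clca1, Zg16, Tff3 and Retnlb, the folding factor Agr2, the transcription factors Spdef and Creb3l1, and the potassium channel gene Kcnk6. The genes were listed by name and no measured value entered the rule, but the list was made with earlier results of these data known. Every non-control probe whose RefSeq accession maps to one of them was kept. This gave 12 probes of 56605 on the array, 2 each for Muc2 and Kcnk6 and 1 for every other gene. They are 10 of 23462 genes with a probe. The samples were colonic epithelium of 3 male mice lacking miR-31 (miR-31 knockout) and of 3 male wild-type mice. RNA of each mouse was labelled with a single dye and hybridised to its own Agilent array. Epithelial cells were flow-separated into TRIzol, according to the series' design text. Gate, strain, age and knockout construction are not given in the sources used here. The RNA is that of a mixed epithelium, so that fewer goblet cells and less RNA per goblet cell cannot be told apart in any of the values.

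Goblet cells make the mucus that separates the colonic epithelium from bacteria. Muc2 is assembled in the endoplasmic reticulum with the help of dedicated folding factors, decorated with O-linked sugars in the Golgi, packed into granules together with smaller proteins, and released to the surface, where it expands into a gel. The cells arise from secretory progenitors under Atoh1, and Spdef and Creb3l1 act in their maturation in mice. MicroRNAs pair with messenger RNAs mainly through their seed, bases 2 to 8, and lower the stability or translation of the RNA. The microRNA removed in the knockout mice is printed here as its 2 mature arms, from RefSeq (GRCm38.p6, chromosome 4, minus strand), at chr4:88910614-88910635 and chr4:88910577-88910599. Capitals mark the seed.
mmu-miR-31-5p: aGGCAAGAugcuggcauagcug
mmu-miR-31-3p: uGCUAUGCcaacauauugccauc

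Signals were taken as log2 of the deposited processed intensity relative to the 75th percentile of the array, so that 0 is the level of the 75th percentile. That percentile lay between 3122 and 3539 intensity units on the knockout arrays and between 3005 and 3352 on the wild-type arrays. The share of probes well above background was 66.6% to 71.1% on knockout arrays and 70.9% to 75.6% on wild-type arrays. All knockout arrays were in row 1 of the slide and all wild-type arrays in row 2, so slide row and genotype cannot be told apart. All 9 epithelial markers (Epcam, Cdh1, Vil1 and others) were above background on every array, with a summed level, in multiples of the 75th percentile, of 105 to 116 in knockout and 110 to 126 in wild-type tissue. The 14 immune markers on the array, of 15 listed, summed to 11.8 to 12.9 in knockout and 10.4 to 11.9 in wild-type tissue. Most of that sum came from a single probe of Itgam, at a mean log2 level of 4.20 in knockout and 4.17 in wild-type tissue. Its other probe was at -5.53 and -4.98. The sum therefore says little of the other immune markers. Cpa3, Mcpt1 and Jchain had log2 changes of 2.14, 2.46 and 1.20, knockout minus wild-type, none passing the test below. The Cpa3 probe cleared background on 3 knockout arrays but on 1 wild-type array, so the size of its change is uncertain. Mcpt1 was unmarked on 2 knockout arrays. Over the list 14 of 20 tested probes were above 0 and 6 below. The 13 stromal, endothelial and smooth muscle markers summed to 5.84 to 8.80 in knockout and 7.37 to 7.70 in wild-type tissue, with Cdh5 not above background on any array.

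All 12 goblet probes were well above background on all 6 arrays, and no spot was saturated. The extraction software marked 34.2% of the values of bright spots, those above the 75th percentile on average, as non-uniform or as outliers. The probes of Fcgbp, Clca1 and Agr2 and 1 probe of Kcnk6 had 3 to 5 marked arrays and fell out of the test, which needs 2 unmarked arrays per group. The other 8 probes, of 7 genes, were tested.

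No goblet probe passed the test between knockout and wild-type epithelium. Of the 8 tested probes 0 passed at an adjusted p under 0.05 (limma, adjusted over 33231 probes), where 0.208% of all tested probes did, and 0 reached an unadjusted p under 0.05, where 10.5% did, 3.27% higher and 7.25% lower in knockout tissue. The log2 changes, knockout minus wild-type, ran from 0.02 for Zg16 to 0.26 for Spdef, with standard errors (SE) of 0.11 to 0.21. No 95% confidence interval of a tested probe went below 0.752-fold or above 1.57-fold of the wild-type level. The median was 0.14 over the 7 tested genes, against -0.06 over all tested probes. All 8 log2 changes were above 0, as were 39.2% of those of all probes.

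**Figure D1:**
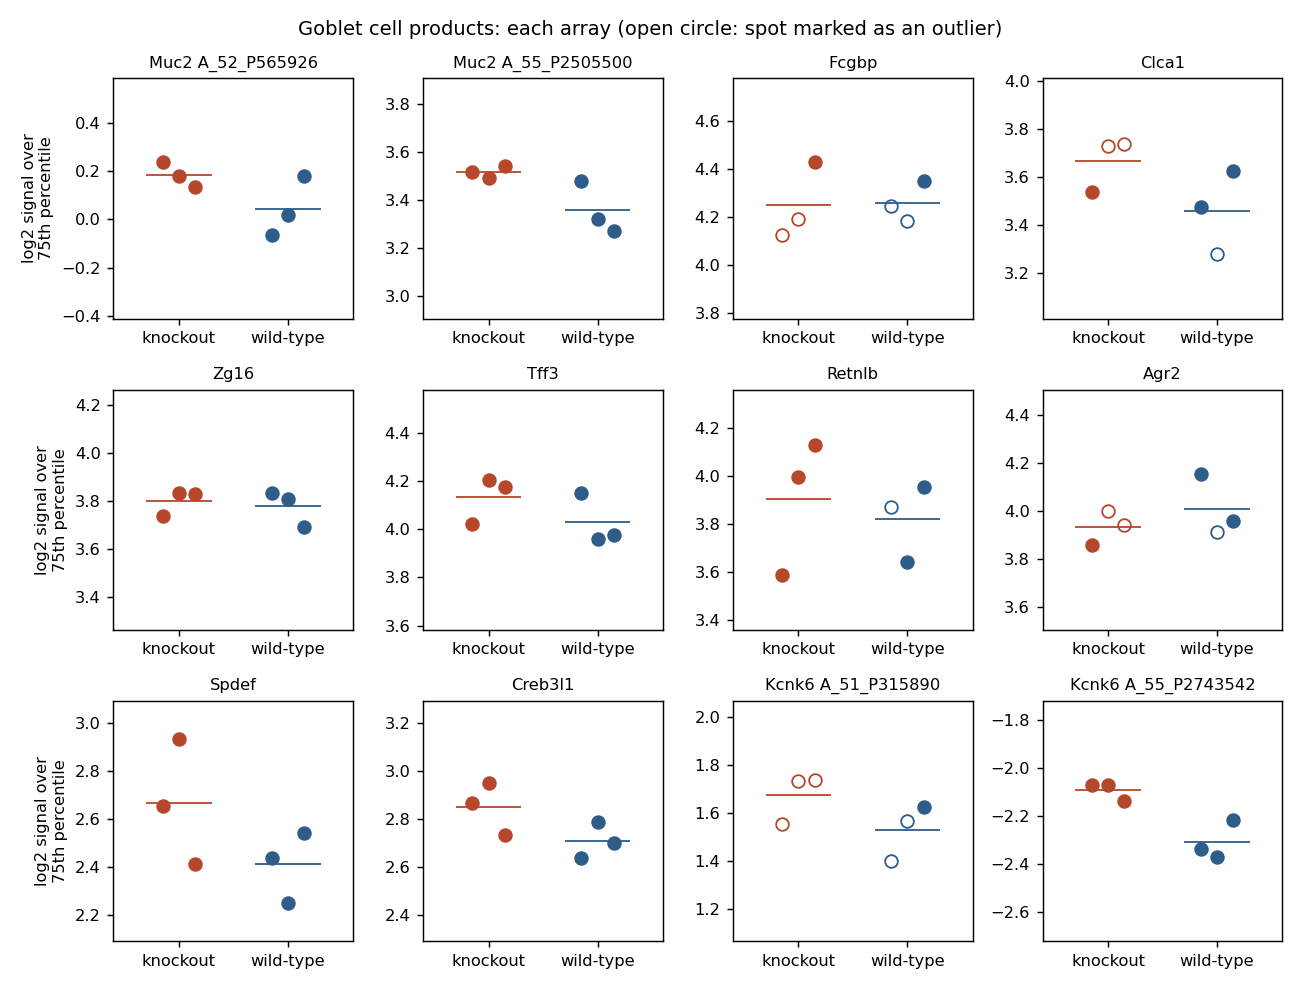
Signal of each goblet probe on each array, as log2 over the 75th percentile of the array (vertical axis, 1 log2 unit in every panel), with 3 knockout arrays left and 3 wild-type arrays right, in the order of replicates 1 to 3. Lines are group means over all 3 arrays, and open circles are spots marked as outliers. The knockout and wild-type arrays stand apart for Muc2 A_55_P2505500 and Kcnk6 A_55_P2743542 and overlap in the other panels.

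Muc2 encodes the gel-forming mucin that is the main structural protein of colonic mucus. Its probe A_55_P2505500 read 3.52, 3.49 and 3.54 in knockout replicates 1 to 3, against 3.48, 3.32 and 3.27 in wild-type replicates 1 to 3. The 3 knockout arrays lay close together and just above the highest wild-type array. The log2 change was 0.16 ± 0.12 (SE, n = 3 and 3, adjusted p = 0.677 by limma), with a 95% confidence interval from -0.11 to 0.43. The other probe of Muc2, A_52_P565926, read 0.24, 0.18 and 0.13 in knockout tissue, against -0.07, 0.02 and 0.18 in wild-type tissue. Here wild-type replicate 3 reached into the knockout range, and the log2 change was 0.14 ± 0.12 (adjusted p = 0.730 by limma). The pair of Muc2 probes gave nearly the same size of change. Groups did not overlap for 2 of the 8 tested goblet probes, both higher in knockout tissue, and for 5.75% of all tested probes in that direction.

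The 250 bases before the start of Muc2, at chr7:141690090-141690339 on the plus strand (RefSeq, GRCm38.p6), are shown because Muc2 is the gene on which the mucus layer rests. Of the 10 genes, 4 had an entry in the promoter table (Muc2, Fcgbp, Agr2 and Spdef). The 5 motifs searched on both strands were TATAAA (the letters of a TATA box), CAGCTG (an E-box of the kind read by factors such as Atoh1), TGTTTAC (forkhead core), TTTATG (CDX core) and CCGGAT (SPDEF core). None of them overlapped another where they are printed. The distance of a match from the start was not considered. Capitals mark the matches, TATAAA followed by CAGCTG. The TATAAA match lies far from the start and is not taken as the core promoter element of Muc2.
Muc2: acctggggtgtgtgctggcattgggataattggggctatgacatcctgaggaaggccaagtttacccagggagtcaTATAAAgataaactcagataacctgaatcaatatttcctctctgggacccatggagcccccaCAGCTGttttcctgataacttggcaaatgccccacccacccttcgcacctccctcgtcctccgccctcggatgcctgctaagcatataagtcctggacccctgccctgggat
Of 32851 promoter windows of this length in the table, 12.4% held TATAAA, 13.0% CAGCTG, 3.17% TGTTTAC, 10.8% TTTATG and 4.94% CCGGAT. Among the 4 goblet promoters TATAAA was found in Muc2, CAGCTG in Muc2 and Fcgbp, TTTATG in Agr2 and Spdef, and the forkhead and SPDEF cores in 0. These are matches of letters, and no binding was measured.

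Fcgbp and Clca1 encode proteins found in the mucus with Muc2. Fcgbp is a large protein with von Willebrand domains, and Clca1 is a secreted metalloprotease that acts on Muc2 in mice. For Fcgbp only knockout replicate 3, at 4.43, and wild-type replicate 3, at 4.35, were unmarked. With the marked spots kept, Fcgbp read 4.13, 4.19 and 4.43 in knockout tissue, against 4.24, 4.18 and 4.35 in wild-type tissue, a log2 change of -0.01 ± 0.13 (SE, n = 3 and 3, adjusted p = 0.989 by limma). In both groups replicate 3 was the highest array, and the groups overlapped throughout. For Clca1 the unmarked arrays were knockout replicate 1, at 3.54, and wild-type replicates 1 and 3, at 3.47 and 3.62. With the marked spots kept, Clca1 read 3.54, 3.73 and 3.74 in knockout tissue, against 3.47, 3.28 and 3.62 in wild-type tissue. The low array was wild-type replicate 2, a marked spot, and the log2 change was 0.21 ± 0.14 (SE, n = 3 and 3, adjusted p = 0.668 by limma, from -0.12 to 0.54).

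Zg16, a lectin-like protein that binds the cell wall of Gram-positive bacteria, varied least over the 6 arrays among the tested goblet probes. It read 3.74, 3.84 and 3.83 in knockout tissue, against 3.83, 3.81 and 3.69 in wild-type tissue. The 6 arrays spanned only 0.14 log2 units, and the change was 0.02 ± 0.11 (SE, n = 3 and 3, adjusted p = 0.964 by limma), with an interval of 0.845-fold to 1.22-fold. Tff3, the trefoil peptide that is secreted with mucin and takes part in epithelial repair, read 4.02, 4.21 and 4.18 in knockout tissue, against 4.15, 3.96 and 3.98 in wild-type tissue. Knockout replicate 1 and wild-type replicate 1 crossed over between the groups, and the log2 change was 0.11 ± 0.12 (adjusted p = 0.813 by limma).

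Retnlb, which encodes the resistin-like molecule beta that goblet cells secrete in response to bacteria and to type-2 cytokines, had the largest SD within a genotype among the tested goblet probes. It read 3.59, 4.0 and 4.13 in knockout tissue, against 3.64 and 3.95 in wild-type replicates 2 and 3. Wild-type replicate 1, at 3.87, was a marked spot and was left out of the fit. The lowest and the highest array were both knockout arrays, and the standard deviation, SD, was 0.28 in knockout tissue (n = 3) and 0.22 in wild-type tissue (n = 2). The log2 change was 0.11 ± 0.21 (SE, n = 3 and 2, adjusted p = 0.900 by limma), and leaving out knockout replicate 3 turned it to -0.0062. Its interval ran from 0.752-fold to 1.54-fold.

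Agr2 is a protein disulfide isomerase of the endoplasmic reticulum that mice need to make Muc2. Knockout replicate 1, at 3.86, and wild-type replicates 1 and 3, at 4.15 and 3.96, were unmarked. With the marked spots kept, Agr2 read 3.86, 4.0 and 3.94 in knockout tissue, against 4.15, 3.91 and 3.96 in wild-type tissue. Only wild-type replicate 1 stood above the knockout range, and the log2 change was -0.07 ± 0.13 (SE, n = 3 and 3, adjusted p = 0.884 by limma). With the marked spots kept, 10 of the 12 goblet probes were above 0 and those of Agr2 and Fcgbp below. Of all 41015 probes fitted that way 40.8% were above 0. At an adjusted p under 0.05 0 of the 12 passed, against 0.178% of all, and at an unadjusted p under 0.05 0 of the 12, against 10.1% of all (limma).

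Spdef, an ETS family transcription factor needed for goblet cell maturation in mice, had the largest log2 change of the tested goblet probes. It read 2.65, 2.93 and 2.41 in knockout tissue, against 2.44, 2.25 and 2.54 in wild-type tissue. Knockout replicate 3 lay below 2 of the wild-type arrays, and knockout replicate 2 stood alone at the top. The log2 change was 0.26 ± 0.17 (SE, n = 3 and 3, adjusted p = 0.645 by limma), ranging from 0.12 with knockout replicate 2 left out to 0.38 with knockout replicate 3 left out. Creb3l1 encodes a transcription factor held in the membrane of the endoplasmic reticulum until it is cleaved. It read 2.86, 2.95 and 2.73 in knockout tissue, against 2.63, 2.78 and 2.70 in wild-type tissue, a log2 change of 0.14 ± 0.12 (adjusted p = 0.724 by limma). Knockout replicate 3 lay inside the wild-type range.

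Kcnk6 encodes a potassium channel of the TWIK type. Its probe A_55_P2743542 read -2.07, -2.07 and -2.14 in knockout tissue, against -2.33, -2.37 and -2.22 in wild-type tissue. All knockout arrays lay above all wild-type arrays, with a log2 change of 0.21 ± 0.11 (SE, n = 3 and 3, unadjusted p = 0.0968 and adjusted p = 0.558 by limma), the smallest p of the goblet probes. The other probe, A_51_P315890, was marked on 5 arrays. With the marked spots kept it read 1.55, 1.73 and 1.74 in knockout tissue, against 1.40, 1.57 and 1.62 in wild-type tissue. The groups overlapped, and the log2 change was 0.14 ± 0.13 (adjusted p = 0.754 by limma).

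**Figure D2:**
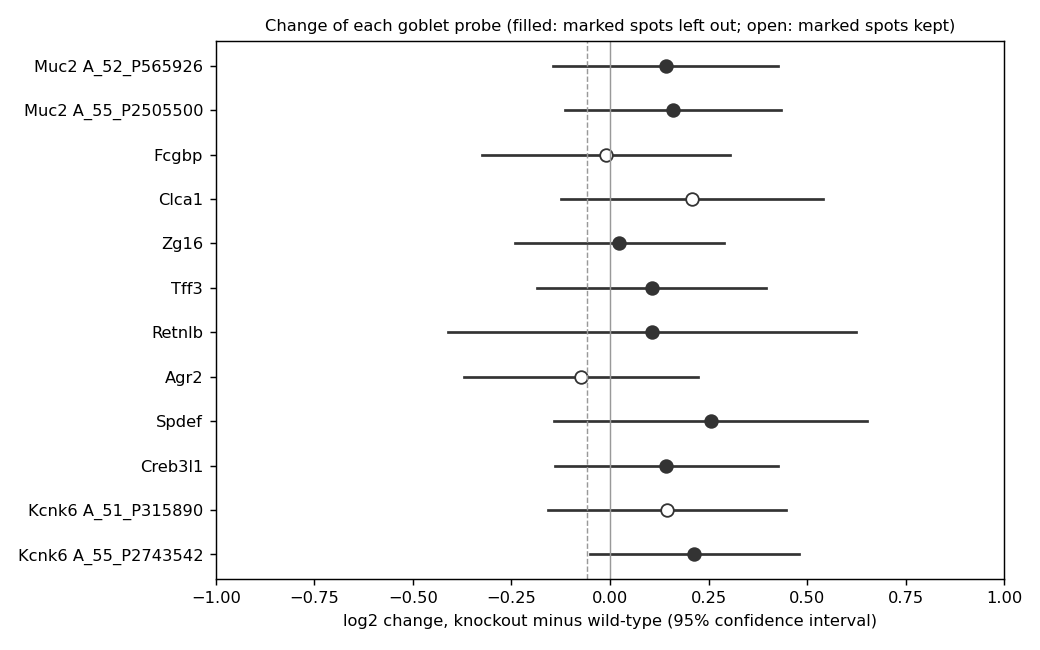
Log2 change, knockout minus wild-type, of each goblet probe with its 95% confidence interval (horizontal axis). Filled points are the 8 tested probes, open points the 4 probes that could be fitted only with marked spots kept. The solid line is 0 and the dashed line the median of all tested probes, -0.06. Every interval includes 0.

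The goblet genes were also set side by side by array, each as its distance from its own mean over the 6 arrays, with marked spots kept and the pair of probes averaged for Muc2 and Kcnk6. Knockout replicate 2 held 9 of the 10 genes above their own mean and knockout replicate 3 held 7, while knockout replicate 1 held 4. Among wild-type arrays replicates 1, 2 and 3 held 4, 2 and 5. The medians over the 10 genes were -0.04, 0.13 and 0.08 in knockout replicates 1 to 3 and -0.04, -0.10 and -0.0046 in wild-type replicates 1 to 3. Knockout replicate 1 lay at the level of wild-type replicate 1, and the medians of the groups overlapped. Muc2 departed from that order, with its highest value in knockout replicate 1, and Agr2, Fcgbp and Retnlb had their lowest there. The summed level of the 10 genes, in multiples of the 75th percentile, was 107 to 120 in knockout and 104 to 114 in wild-type tissue.

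**Figure D3:**
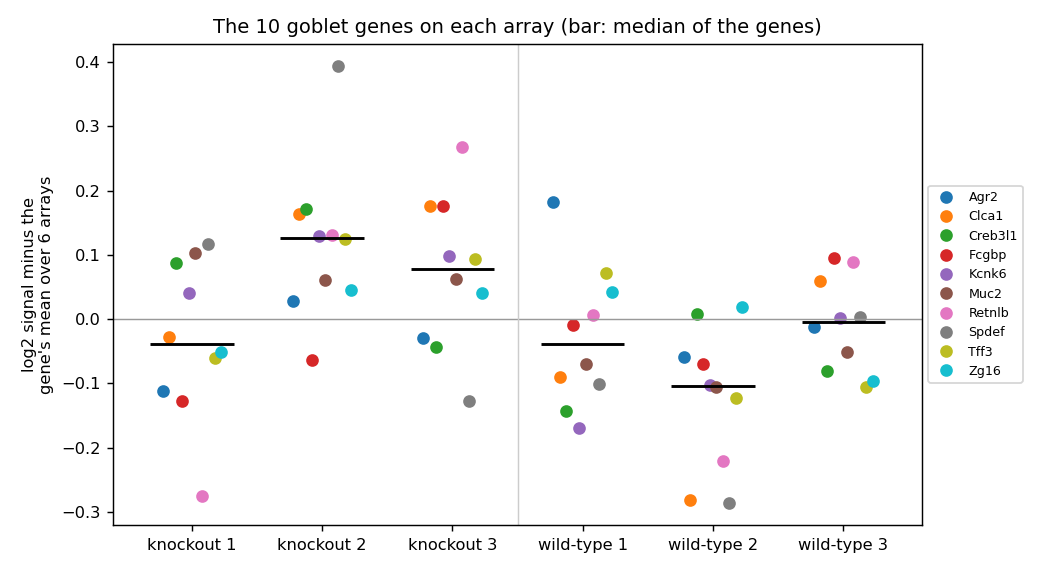
Log2 signal of each of the 10 goblet genes minus that gene's mean over the 6 arrays (vertical axis), by array, with the median of the genes as a bar. Knockout replicate 2 has the highest median, 0.13, and wild-type replicate 2 the lowest, -0.10, and knockout replicate 1 sits level with wild-type replicate 1 at -0.04.

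The genes that surround these products in the goblet cell were examined in 8 lists by role, with 166 genes, of which 114 had a tested probe. Of their 145 tested probes 0 passed at an adjusted p under 0.05 (limma), and 7 were higher and 3 lower at an unadjusted p under 0.05. That is 6.90% in both directions together, against 10.5% of all tested probes, 3.27% higher and 7.25% lower. The directions thus differed: most of these probes were higher in the lists, and most were lower over all tested probes. Groups did not overlap for 13.8% of these probes, in either direction together, against 17.9% of all tested probes, 5.75% higher and 12.2% lower. By list, 4 probes without overlap were higher and 0 lower for folding, 3 and 5 for O-glycosylation and 2 and 1 for fate genes. For inducers they were 0 and 3, and for relatives of the goblet genes 3 and 0. Agr3 is counted under both folding and relatives, and the other lists had 0. Their median log2 change was -0.0039.

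Other goblet cell markers centred on a log2 change of 0.02 (median of 15 tested probes of 12 genes), with 9 above and 6 below 0. Capn9, a calpain protease gene, was at 0.26 ± 0.14 (SE, n = 3 and 3), and Mlph, a melanophilin gene that links granules to myosin, at 0.17 ± 0.16 (SE, n = 2 and 3). Capn8, another calpain gene, was at 0.22 ± 0.22 and 0.00064 ± 0.29 by its probes (SE, n = 3 and 2). Pla2g10, a secreted phospholipase gene, had unlike values by its probes, at -0.53 ± 0.19 and -0.01 ± 0.13. Genes of the fate decision had a median of -0.01 over 17 probes. Hes1, the Notch effector that opposes secretory fate, was at 0.25 ± 0.16 (SE, n = 2 and 3). Nkx2-2 was at 0.63 ± 0.32 and 0.99 ± 0.57 by its probes, Gata4 at -0.65 ± 0.50 and -0.33 ± 0.31, and Etv5 at 0.48 ± 0.14 (adjusted p = 0.314 by limma). The first Nkx2-2 probe cleared background on 3 knockout and 2 wild-type arrays and the second on 2 and 2, so both changes lie near background. Etv5 read 0.88, 1.07 and 0.69 in knockout tissue, against 0.43, 0.35 and 0.43 in wild-type tissue, with no overlap.

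Among folding and secretory pathway genes the median log2 change was 0.13 (13 probes of 11 genes), with 10 probes above and 3 below 0. The median was 0.06 without knockout replicate 2 and also without wild-type replicate 3. Groups did not overlap for 4 of these 13 probes, all higher in knockout tissue, against 5.75% of all tested probes in that direction. Agr3, described below among the relatives of the goblet genes, is 1 of the 4 and stands in both lists. Creld2, an endoplasmic reticulum protein induced by unfolded proteins, read 2.55, 2.57 and 2.46 in knockout tissue, against 2.15, 2.17 and 2.24 in wild-type tissue. Its log2 change of 0.34 ± 0.11 did not pass (adjusted p = 0.356 by limma). Txndc5 and Pdia6, both of the disulfide isomerase family, were at 0.40 ± 0.20 (SE, n = 2 and 2) and 0.15 ± 0.12.

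Mucin O-glycosylation genes were spread widely around a median log2 change of -0.08 over 28 probes of 22 genes, 9 above and 19 below 0. Chst5, a sulfotransferase gene, was at 1.54 ± 0.45 (adjusted p = 0.327 by limma), from -3.02, -2.11 and -2.44 in knockout tissue, against -4.54, -4.61 and -3.03 in wild-type tissue. Wild-type replicate 3 lay just under the lowest knockout array. B3gnt6, which builds a core O-glycan of colonic mucin, was at 0.59 ± 0.19 (SE, n = 3 and 2, adjusted p = 0.386 by limma). B3gnt7 and the sialyltransferase gene St3gal6 went the other way, at -0.71 ± 0.28 (SE, n = 2 and 2) and -0.31 ± 0.11.

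For granule exocytosis and anion transport genes the median log2 change was -0.00066 (28 probes of 19 genes), 14 above and 14 below 0, and the groups overlapped for each of these probes. Sytl1, a synaptotagmin-like gene of granule docking, was at -0.23 ± 0.15. Sytl4 was at -0.24 ± 0.20 and 0.09 ± 0.14 by its probes, Rab3a, a GTPase gene of secretory vesicles, at 0.18 ± 0.15 and 0.15 ± 0.20, and Myo5b, a myosin motor gene, at -0.17 ± 0.15 and -0.06 ± 0.17. Mucus processing enzymes had a median of 0.03 over 8 probes, 5 above and 3 below 0, and of -0.067 without wild-type replicate 3. The transglutaminase genes were at 0.38 ± 0.26 for Tgm2 and, by its 2 probes, at -0.10 ± 0.22 and -0.07 ± 0.17 for Tgm3, which cross-links Muc2 in mice. Mep1a, a subunit of the protease meprin, was at -0.10 ± 0.15 and Ctsd, a lysosomal protease gene, at 0.06 ± 0.15 (SE, n = 3 and 2 for both). Inducers and their receptors had a median of -0.07 over 23 probes. Il13, Il22 and Il25, cytokines that drive goblet cell responses in mice, were at -0.42 ± 0.15, -0.28 ± 0.12 and -0.24 ± 0.11, with adjusted p of 0.408, 0.494 and 0.516 (limma). For these 3 of the 23 probes the knockout arrays lay below all wild-type arrays, as they did for 12.2% of all tested probes, so the share of the list is near that of the array as a whole. The Il13 probe cleared background on 1 knockout array, against 3 wild-type arrays. Tlr5, the flagellin receptor gene, was at 0.63 ± 0.28.

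**Figure D4:**
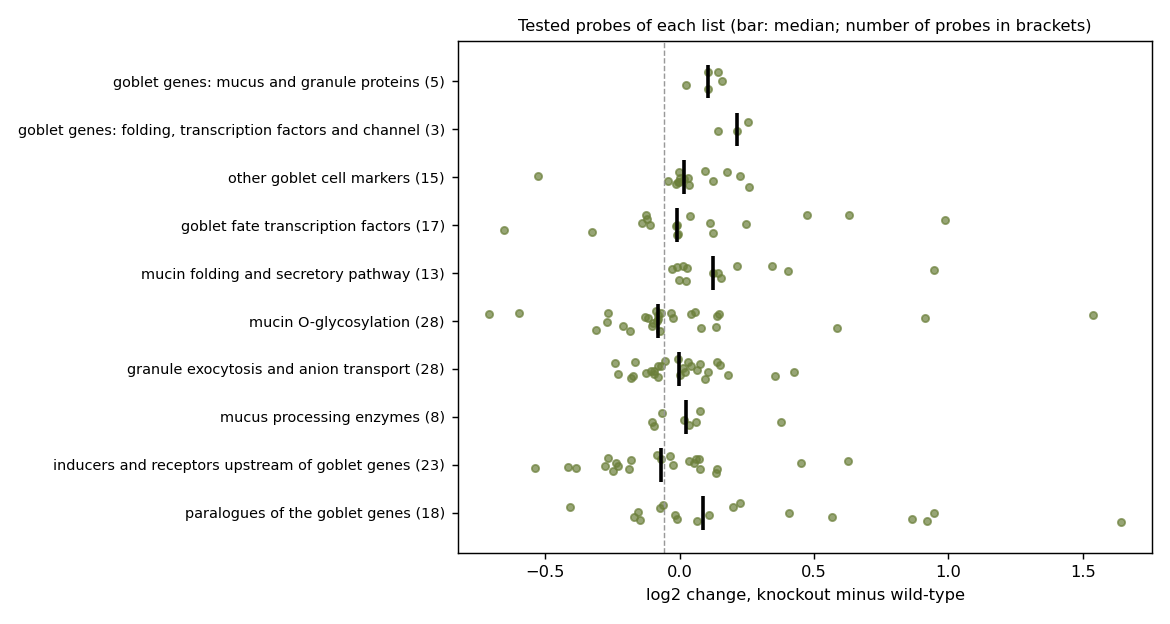
Log2 change, knockout minus wild-type (horizontal axis), of every tested probe in the goblet gene groups and the 8 surrounding lists, with the list median as a bar and the median of all tested probes, -0.06, as a dashed line. The tested goblet probes lie between 0.02 and 0.26. The highest points are Chst5 among O-glycosylation genes, at 1.54, and Tff2 among relatives of the goblet genes, at 1.64. The medians of these lists are -0.08 and 0.09.

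Relatives of the goblet genes (paralogues) included log2 changes beyond those of the goblet genes, none of which passed the test. Their median was 0.09 over 18 probes of 15 genes, and it ranged from 0.04 without knockout replicate 3 to 0.23 without wild-type replicate 2. At an unadjusted p under 0.05, 3 probes were higher and 0 lower, against 3.27% and 7.25% of all tested probes. Tff2, the trefoil peptide best known from the stomach, read -3.48, -3.90 and -2.70 in knockout tissue, against -5.12, -4.86 and -5.03 in wild-type tissue. The groups did not overlap, with a log2 change of 1.64 ± 0.29 (SE, n = 3 and 3, adjusted p = 0.138 by limma). Tff3 beside it was at 0.11. Agr3, the relative of Agr2, read -3.01, -3.06 and -3.12 in knockout tissue, against -4.36, -4.06 and -3.62 in wild-type tissue, a log2 change of 0.95 ± 0.20 (adjusted p = 0.197 by limma), where Agr2 was at -0.07. Both Tff2 and Agr3 passed in 1 of 17 alternative settings, normexp background correction (adjusted p = 0.0467 and 0.0387 by limma), and reached 0.460 and 0.520 at the other end of their range.

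Retnla and Clca2, relatives of Retnlb and Clca1, were at 0.86 ± 0.33 and 0.92 ± 0.39 (adjusted p = 0.429 and 0.478 by limma), with wild-type replicate 3 inside the knockout range for both. The difference between a relative and its goblet gene was not tested, since these relatives were those with the smallest p in their list. Other relatives were smaller or went the other way. Tff1 was at -0.02, and by their probes Retn was at -0.41 and -0.15 and Clca3a1 at 0.23 and -0.17. Of the 18 probes of relatives 10 were above 0 and 8 below. Markers of other cell types had shifts of their own, none passing at an adjusted p under 0.05 (limma). At an unadjusted p under 0.05, 5 of 9 enteroendocrine probes were higher in knockout tissue, 3 of 5 deep crypt secretory and Paneth probes were higher, 3 of 12 tuft cell probes were lower, and 5 of 20 immune probes were higher and 1 lower. Of all tested probes 3.27% were higher and 7.25% lower at that p. The 3 higher deep crypt secretory and Paneth probes were those of Mmp7, at 1.37 and 1.43, and of Itln1, at 0.90. Those of the Paneth genes Lyz1 and Defa24 were at -0.19 and 0.10, so the count rests on Mmp7 and Itln1 alone. The 9 enteroendocrine markers summed to 24.9 to 31.3 in knockout and 20.9 to 23.6 in wild-type tissue, without overlap. Bright genes weigh most in such a sum. Of the 9 enteroendocrine probes 8 were above 0 and 1 below. For 4 of them the groups did not overlap, all higher in knockout tissue, against 5.75% of all tested probes in that direction. The 6 deep crypt secretory and Paneth markers on the array, of 7 listed, summed to 23.1 to 32.7 and 19.0 to 28.2, and the 7 tuft cell markers of 8 to 2.30 to 2.86 and 2.32 to 3.68. What these cells contribute to the goblet genes and to Tff2, Agr3, Retnla and Clca2 was not tested.

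**Figure D5:**
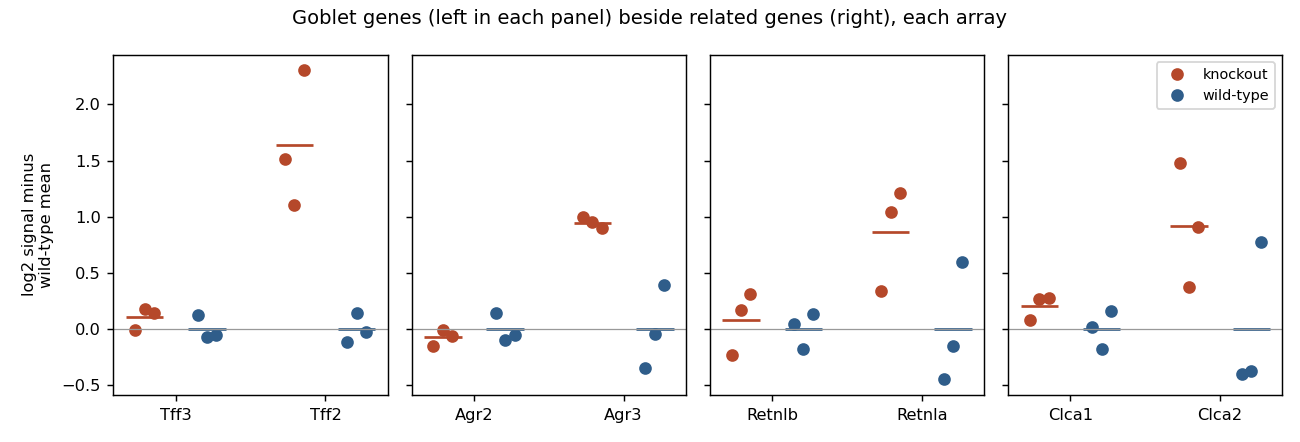
Log2 signal minus the wild-type mean of the gene (vertical axis) on each array, with marked spots kept, for Tff3, Agr2, Retnlb and Clca1 (left in each panel) and their relatives Tff2, Agr3, Retnla and Clca2 (right). Lines are group means. The knockout means of the goblet genes lie between -0.07 and 0.21, and those of the relatives shown between 0.86 and 1.64. The relatives shown were picked for the smallest p among 15 tested, so their larger changes follow from the choice.

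Agr2 and Agr3 are neighbours on mouse chromosome 12 and both carry promoter entries (RefSeq, GRCm38.p6, plus strand, chr12:35992675-35992924 and chr12:35925371-35925620). They are shown together as a goblet gene and its relative that lie side by side in the genome. Capitals mark matches to the 5 motifs above. Agr2 holds a CDX core, read on the minus strand, and Agr3 holds none of the 5.
Agr2: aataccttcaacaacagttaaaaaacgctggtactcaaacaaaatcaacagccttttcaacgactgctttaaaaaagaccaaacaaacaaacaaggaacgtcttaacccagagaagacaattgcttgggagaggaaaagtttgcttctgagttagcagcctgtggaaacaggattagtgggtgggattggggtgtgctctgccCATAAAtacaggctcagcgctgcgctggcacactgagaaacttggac
Agr3: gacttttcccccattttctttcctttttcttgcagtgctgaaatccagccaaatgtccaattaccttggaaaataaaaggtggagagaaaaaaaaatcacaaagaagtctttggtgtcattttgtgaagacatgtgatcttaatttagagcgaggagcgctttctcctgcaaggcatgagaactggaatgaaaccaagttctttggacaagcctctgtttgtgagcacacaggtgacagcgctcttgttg
No match says only that these letters are not in this window.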

How the data were processed

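The deposited scanner files hold spot intensity values from Agilent Feature Extraction, version 11.5.1.1 per the file headers and 10.7 per the submitters' processing notes. Per the file headers the processed intensity is corrected for background within each array. A further deposited file of probe intensity on a linear scale matched: 99.7% of its entries came within 0.01 log2 units of the spot averages.

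Of 62976 spots per array, 3671 control spots were left out, which leaves 59305 spots of 56605 probes. Gene symbols came from RefSeq accessions (GRCm38.p6) for 33767 probes. The array design names mm9, so no probe coordinates are given. Log2 processed intensity minus the 75th percentile of the array was used, without the spots marked as non-uniform or as outliers (4.95% to 17.3% per array). A probe was tested when well above background on at least 3 arrays and unmarked on at least 2 arrays of each group. Each probe was its own feature. The genotypes were compared by the two-sided, moderated test of limma 3.58.1 (R 4.3.3, data.table version 1.17.8), adjusted by Benjamini-Hochberg over 33231 probes, with a threshold of 0.05. Errors are limma standard errors unless stated, and 3 mice per group limit the precision.

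The goblet genes and the other lists were chosen with earlier results of these data known. All 10 goblet genes are named with every probe, and from the 8 lists of goblet cell genes up to 4 genes each with the smallest unadjusted p. A few further relatives are named beside them. The lists of other cell types are given mainly by counts and sums, with some of their genes named. Alternatives were normexp, quantile normalization, the deposited series file, no filter on dim probes, and marked spots kept. Slide column or the first digits of the sample title served as a block in others. The rest were array weights, trend with robust variance, 1 value per gene, and each array left out.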

Additional observations from a re-analysis of the deposited data

How the results depend on the processing

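In each of 17 alternative settings 0 goblet probes passed, with the lowest adjusted p at 0.305, and the median over the goblet genes lay between 0.12 and 0.16 in the settings that keep all arrays and between 0.09, without knockout replicate 2, and 0.16 with 1 array left out. Of 133 values of single goblet probes under these settings, 131 kept their direction. The exceptions came from leaving out 1 array: Retnlb ranged from -0.0062, without knockout replicate 3, to 0.26, and Zg16 from -0.019, without wild-type replicate 3, to 0.055. Retnlb could not be fitted without wild-type replicate 2 or 3, which leaves 1 unmarked wild-type array. The surrounding lists had 0 probes called in all settings but normexp, which called 2, Tff2 and Agr3. Of 136 list medians 128 moved by less than the spread between replicates. The others were those of the folding genes (0.06 without knockout replicate 2 or wild-type replicate 3), of the relatives (0.23 and 0.16 without wild-type replicate 2 or 3) and of the mucus processing enzymes (-0.017 with marked spots kept, 0.06 with probes averaged, -0.0037 without knockout replicate 1, -0.067 without wild-type replicate 3). Over all probes 69 were called, 49 higher and 20 lower. This count was 125 with normexp, 124 with array weights, 128 with trend and robust variance and 44 without the filter on dim probes. With 1 array left out it ranged from 30 to 131, at 30 without knockout replicate 2, 131 without knockout replicate 3, 31 without wild-type replicate 1 and 33 without wild-type replicate 2. The cause was not tested. Normexp was run on the median spot signal, as no column of mean spot signal was used. No paired analysis was possible because the labels give no replicate numbers that the groups share. Blocks that tie arrays across genotypes in other ways were fitted. A block by slide column called 51 probes and a block by the first 3 digits of the sample title 77, each with 0 goblet probes. In both, knockout replicate 3 and wild-type replicate 3 were put in the same level, though they share neither the column nor those digits. The titles do not say what the digits stand for.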

Other observations

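With marked spots kept, 12 probes of all 10 genes were fitted, 10 above and 2 below 0, with log2 changes from -0.07 to 0.26 and adjusted p from 0.590 to 0.989 (limma). The lowest bound of any interval was 0.773-fold and the highest 1.57-fold. Of 33231 tested probes, 2188 had a mean level above 2 (log2 over the 75th percentile), 6 of the 8 tested goblet probes among them. The median log2 change of those bright probes was -0.03, and 39.2% of them were above 0.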
